A study of Homo sapiens with 9 samples.

Results

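The interferon response genes IFIT1, IFIT2, IFIT3, IFIH1, ISG15, MX1, OAS1, OAS2 and OAS3 were examined for open chromatin after transfection of siRNA into HepG2 cells, a line derived from a human liver tumour. These 9 genes were chosen by name, out of 20163 annotated protein-coding genes, because small RNA brought into a cell can set off an innate response. The choice was made with earlier results of these data known. ATAC-seq peaks overlapping a gene body or the 20 kb on either side were taken, which gave 29 of 69730 peaks in NTG, 30 of 69333 in siINO80#1 and 24 of 53113 in siINO80#2. ATAC-seq marks open DNA by the insertion of sequencing adapters with a transposase. NTG is a non-targeting control siRNA, and siINO80#1 and siINO80#2 target INO80, the catalytic subunit of the nucleosome remodeler of that name. Each siRNA was given at 50 nM for 72 hours with the same transfection reagent, in 3 replicates. All 3 groups therefore received siRNA, no untransfected group was analysed here, and a response common to every siRNA cannot be seen in these comparisons.

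Each group is represented by 1 deposited peak list made from its replicates. There are no values per replicate for these genes, so the spread between replicates is unknown and no test was made. Loss of INO80 itself is not measured by a peak list. Of 10 liver and HepG2 marker genes, 9 had a peak at the start site in NTG, 8 in siINO80#1 and 8 in siINO80#2, and AFP, a fetal liver protein, had none. Of 7 blood cell markers 1, CD14, had a peak in each list, and of 5 fibroblast and endothelial markers 0 had one in any list. A further endothelial marker chosen beforehand, PECAM1, was not matched to a protein-coding gene and was not counted.

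Cells sense foreign RNA with receptors such as the cytoplasmic helicase encoded by IFIH1 (MDA5). Signalling from these receptors leads to secretion of type I and type III interferons, whose receptors activate transcription factors such as IRF9. These bind a short sequence in the promoters of their target genes, the interferon-stimulated response element. The IFIT proteins bind viral RNA, the OAS enzymes make an oligoadenylate that activates RNase L, MX1 is an antiviral GTPase, and ISG15 is a ubiquitin-like modifier.

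The sequences before the start sites are shown first, because several of the accessible summits described below lie in or beside them. Other summits lay after the start, outside the sequence shown. These were the IFIT3 summits in every list, apart from those at its internal start, and the IFIT2 summits except in siINO80#2. They were read from GRCh37, the build of the deposited coordinates, on the strand of the gene. Capitals mark a response element, searched as GAAA, 2 bases of any kind and GAAA on both strands, and each run stops where an annotated untranslated region begins. The IFIH1 run includes the beginning of a first exon of its neighbour GCA, from a transcript without an annotated coding sequence. The regions are chr2:163175195-163175393 on the minus strand for IFIH1, chr10:91152130-91152302 for IFIT1, chr10:91061553-91061733 for IFIT2, chr10:91087504-91087697 for IFIT3, chr10:91091991-91092240 for an internal start of IFIT3, and chr1:948627-948876 for ISG15, all but the first on the plus strand.
IFIH1: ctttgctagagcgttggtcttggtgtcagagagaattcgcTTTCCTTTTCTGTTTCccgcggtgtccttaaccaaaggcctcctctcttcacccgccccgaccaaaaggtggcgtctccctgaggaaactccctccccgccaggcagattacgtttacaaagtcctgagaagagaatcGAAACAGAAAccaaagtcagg
IFIT1: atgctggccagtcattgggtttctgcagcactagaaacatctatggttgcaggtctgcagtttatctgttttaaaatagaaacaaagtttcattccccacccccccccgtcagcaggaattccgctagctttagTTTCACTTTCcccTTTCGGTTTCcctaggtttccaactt
IFIT2: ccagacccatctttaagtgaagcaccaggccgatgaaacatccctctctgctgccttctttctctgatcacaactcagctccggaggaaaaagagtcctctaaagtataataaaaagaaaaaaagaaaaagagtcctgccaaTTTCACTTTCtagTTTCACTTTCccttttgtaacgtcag
IFIT3: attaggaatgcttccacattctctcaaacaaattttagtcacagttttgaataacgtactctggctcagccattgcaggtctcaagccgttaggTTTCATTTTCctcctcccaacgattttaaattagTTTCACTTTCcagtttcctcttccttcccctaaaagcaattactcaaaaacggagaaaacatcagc
IFIT3, internal start: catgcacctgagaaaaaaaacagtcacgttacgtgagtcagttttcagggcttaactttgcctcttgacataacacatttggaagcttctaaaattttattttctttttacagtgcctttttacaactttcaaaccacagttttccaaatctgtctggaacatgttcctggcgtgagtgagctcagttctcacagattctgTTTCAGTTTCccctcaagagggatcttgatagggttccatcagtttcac
ISG15: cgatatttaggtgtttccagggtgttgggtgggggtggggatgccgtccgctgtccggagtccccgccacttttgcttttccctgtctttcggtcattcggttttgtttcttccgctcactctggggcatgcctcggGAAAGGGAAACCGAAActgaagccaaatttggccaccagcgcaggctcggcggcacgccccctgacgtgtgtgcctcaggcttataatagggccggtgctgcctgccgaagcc

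Between 250 bases before and 50 after the start, the element was present in 7 of the 9 genes, and in 3.32% of all protein-coding promoters. IFIT1 and IFIT2 each held a pair, reading antisense, whose first bases lay 116 and 103 bases before the start in IFIT1 and 108 and 95 in IFIT2. ISG15 held overlapping elements beginning 113 and 107 bases before its start. OAS3 had 2 matches, OAS2 had 1 that began at base 3 of the transcript, and the windows of OAS1 and MX1 held no match to these letters. The members' promoters were poorer in CpG than most, with a median observed to expected ratio of 0.421 against 0.773 over all genes, and their median GC content was 50.7% against 63.7%.

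To ask whether start sites differed between NTG and either INO80 siRNA, the strongest peak summit within 1 kb of the representative start was taken from each list. A peak was present at 6 of the 9 starts in NTG, 5 in siINO80#1 and 5 in siINO80#2. Over all protein-coding genes the shares were 55.6%, 55.6% and 48.9%. IFIH1, IFIT1, IFIT2 and IFIT3 had one in all 3 lists. OAS1 and OAS3 had one in NTG, OAS2 in siINO80#1, ISG15 in siINO80#2, and MX1 in none. Across all protein-coding genes, 46.9% had a start-site peak in all 3 lists, beside 4 of the 9 members.

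Of the 6 starts with a peak in NTG, 2 had none in siINO80#1, where the share over all genes with an NTG peak was 6.11%. The same 6 starts included 2 without a peak in siINO80#2, where the share over all genes was 14.6%. Of the 3 starts with no peak in NTG, 1 had a peak in siINO80#1 and 1 in siINO80#2, against 7.62% and 3.31% over all genes. The siINO80 comparisons share the NTG list, so an unusual NTG value enters both. With peaks of a −log10 q of at least 5 only, OAS1 was the single start that differed from NTG in siINO80#1, and OAS1 and IFIT2 were the 2 that differed in siINO80#2. At that setting 1503 of the 20163 protein-coding starts differed from NTG in siINO80#1 and 2044 in siINO80#2. OAS3, OAS2 and ISG15 then had no start-site peak in any list.

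Fold enrichment is the ratio, set by the peak caller, of reads at the summit to the local background. Strength was compared within a list as a percentile, the percent of that list's peaks with a lower fold enrichment. Between lists, the reads at the summit recovered from the peak values were divided by the genome background of the list, which was 3.82 reads in NTG, 5.16 in siINO80#1 and 5.34 in siINO80#2. Intervals are exact 95% Poisson intervals, cover counting error alone and assume the formulas of MACS2. The weakest listed summits stood at 3.14, 2.72 and 2.81 times background, at places where the local background was about that of the genome. Where the local background is higher, a start without a peak may lie above these levels. The SOCS1 start, for example, had a level of 9.17 in NTG but only the 0.283rd percentile. Over all genes with a peak in both lists, the median ratio of this level to NTG was 0.910 in siINO80#1 and 0.716 in siINO80#2.

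**Figure D1:**
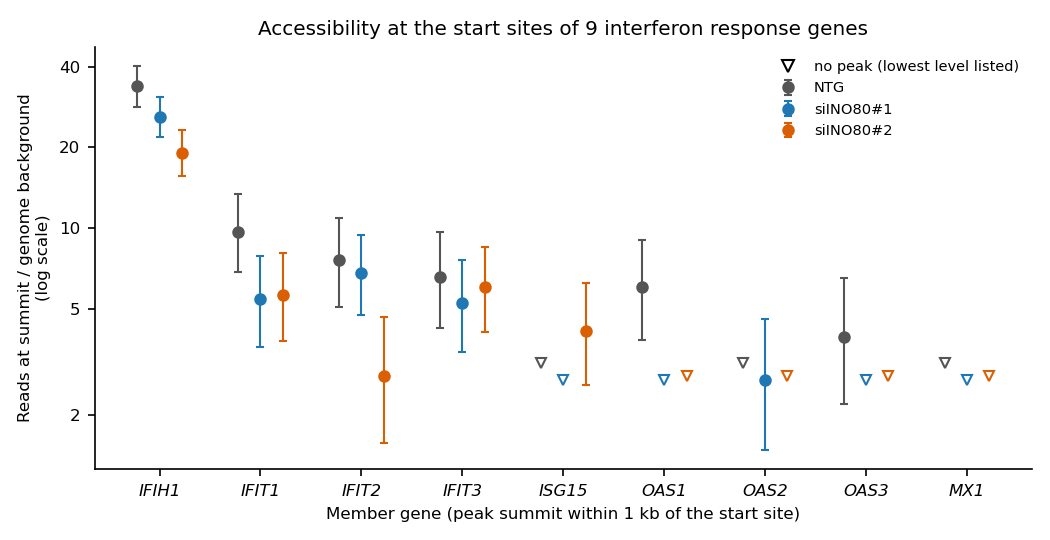
Reads at the start-site summit over the genome background of the list (log axis) for the 9 genes. Points are the single value of each list, bars are 95% Poisson intervals of counting error, and open triangles mark the lowest level listed where no peak was called. A triangle is not a limit for a gene whose local background is above that of the genome. IFIH1 has the highest points, and OAS1 stands above the triangles in NTG alone.

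IFIH1, whose product is the RNA sensor MDA5, had the strongest start-site peak of the 9 genes in every list. Its fold enrichment was 11.3 in NTG, 10.4 in siINO80#1 and 8.81 in siINO80#2, at the 98.7th, 98.1st and 97.1st percentile. The summit held 129, 134 and 102 reads. Relative to the genome background these were levels of 33.8 (28.2 to 40.1), 26.0 (21.8 to 30.8) and 19.1 (15.6 to 23.2). The local background here was 10.5, 11.9 and 10.7 reads, above the genome values of 3.82, 5.16 and 5.34. These levels therefore exceed the fold enrichment, and are not corrected for the local background. The ratios of the level to NTG were 0.769 (0.600 to 0.987) and 0.566 (0.432 to 0.739). These are exact 95% intervals of the counting error of both values. Both ratios lay below the all-gene medians of 0.910 and 0.716, and both intervals include those medians. The rank within the list differed from NTG by −0.635 and −1.65 percentile points. The peak runs over the first exon of IFIH1, and the NTG summit lay 17 bp inside an annotated first exon of GCA, a calcium-binding protein gene transcribed the other way, so the signal of these neighbouring starts cannot be told apart.

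IFIT1, which encodes a protein that binds viral RNA 5′ ends, was lower in rank with both INO80 siRNAs. Fold enrichment was 7.26 in NTG, 4.71 in siINO80#1 and 4.37 in siINO80#2, and the percentile was 90.9, 76.1 and 73.8. The summits lay 50, 85 and 68 bases before the start, beside the paired elements shown above. The level was 9.69 times background (6.82 to 13.4) in NTG, 5.43 (3.61 to 7.85) in siINO80#1 and 5.62 (3.79 to 8.03) in siINO80#2. The ratios to NTG were 0.560 (0.330 to 0.941) and 0.580 (0.346 to 0.965), below 1 by more than counting error, and both intervals include the all-gene medians of 0.910 and 0.716.

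IFIT2, a relative of IFIT1 in the same cluster, behaved differently with the 2 siRNAs. In NTG its fold enrichment was 5.40 and its percentile 80.3. The values were 5.48 and 83.0 in siINO80#1, but 2.38 and 10.2 in siINO80#2. The summit in siINO80#2 held 15 reads, the smallest number listed there, against 29 in NTG and 35 in siINO80#1. As levels these were 2.81 (1.57 to 4.64), 7.59 (5.09 to 10.9) and 6.79 (4.73 to 9.44), and the siINO80#2 interval overlapped neither of the others. The ratio to NTG was 0.894 (0.531 to 1.52) in siINO80#1 and 0.370 (0.184 to 0.713) in siINO80#2. The called summit lay 117 and 85 bases after the start in NTG and siINO80#1, and 82 bases before it in siINO80#2. The siINO80#2 peak, chr10:91061692-91061966, also covers the NTG and siINO80#1 summits. Its −log10 q was 1.38, so the place of its summit is uncertain and no displacement can be read from it.

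IFIT3, which encodes a partner of IFIT1, had a peak of middling rank in all 3 lists. Its percentile was 70.3 in NTG, 66.4 in siINO80#1 and 73.4 in siINO80#2, and its levels of 6.55 (4.24 to 9.66), 5.24 (3.45 to 7.62) and 5.998 (4.10 to 8.47) gave ratios to NTG of 0.7999 (0.447 to 1.44) and 0.916 (0.526 to 1.61), whose intervals include 1. A region at the internal start, used by 4 annotated transcripts beginning at chr10:91092241-91092269, had a peak in siINO80#1 and siINO80#2 and none in NTG. Fold enrichment there was 4.35 and 3.30, from 31 and 24 reads. This region also held TGANTCA, the letters bound by AP-1, within 100 bases of its strongest summit. The siINO80#1 summit lay 233 bases before the internal start and the siINO80#2 summit 188 bases before it.

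Counted against all genes, a percentile lower by at least 10 points was seen for 1 of the 4 members with a peak in NTG and siINO80#1, IFIT1, where 17.5% of all genes were that much lower and 14.8% that much higher. In siINO80#2 the 2 members IFIT1 and IFIT2 of 4 were lower by at least 10 points, where 33.7% of all genes were lower and 6.66% higher. The median difference of the 4 members was −2.27 points in siINO80#1 and −9.38 in siINO80#2, beside −0.145 and −3.73 over all genes.

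The 3 OAS genes lie side by side on chromosome 12 and encode oligoadenylate synthetases. OAS1 had a peak in NTG at chr12:113344483-113344766, with a summit 71 bases before the start, a fold enrichment of 4.98 and a percentile of 75.9. Its 23 reads gave a level of 6.02 (3.82 to 9.04). The nearest summit lay 67437 bases upstream in siINO80#1 and 67135 bases upstream in siINO80#2. At the NTG level this start would hold 31.1 reads (19.7 to 46.6) in siINO80#1, where the weakest listed summit had 14, and 32.1 (20.4 to 48.2) in siINO80#2, where it had 15. Both intervals, which cover the counting error of the NTG value alone, lie above the weakest listed summit. Of all genes with an NTG start-site peak in the same band of the percentile scale, between 70 and 80, 0.995% had none in siINO80#1 and 6.5% had none in siINO80#2.

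OAS3 had a weaker peak in NTG, with 15 reads, a fold enrichment of 3.15 and a percentile of 41.9, and its level was 3.93 (2.199 to 6.48). Between the 40th and 50th percentile, 15.7% of all genes with an NTG peak had none in siINO80#1 and 38.4% had none in siINO80#2. The same level would give 20.3 reads (11.3 to 33.4) in siINO80#1 and 20.96 (11.7 to 34.6) in siINO80#2. Both intervals include the weakest listed summit. OAS2 had a peak in siINO80#1, 227 bases after the start, with 14 reads, a fold enrichment of 2.44 and a level of 2.72 (1.48 to 4.56). That is the lowest level listed in siINO80#1, and it would give 10.4 reads in NTG, where fewer than 12 were never listed.

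ISG15 had a start-site peak in siINO80#2 alone, 90 bases before the start and over the paired elements. It was among the weakest of that list, with a fold enrichment of 2.26, a percentile of 5.09 and 22 reads, a level of 4.12 (2.58 to 6.24). An equal level would give 15.7 reads (9.87 to 23.8) in NTG, and summits of 12 reads, which lie inside that interval, were listed there. The local background of the siINO80#2 summit was 9.19 reads, above the 5.34 of the genome. The weakest listed summit may therefore not be the limit at this start. The nearest summit lay 6900 bases upstream in NTG and 6213 bases downstream in siINO80#1.

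MX1 had no peak within 1 kb of its representative start in any list. Its upstream starts, used by 13 annotated transcripts between 42791947 and 42792537 on chromosome 21, had a peak in all 3. Fold enrichment there was 3.42 in NTG, 4.07 in siINO80#1 and 2.61 in siINO80#2, at percentiles of 50.6, 68.8 and 24.4. The strongest summit of this region had a response element within 100 bases. The summits held 20, 31 and 20 reads, levels of 5.24, 6.01 and 3.75 times background, for which no ratio interval was computed. Over all genes the median ratio of the level to NTG was 0.716 in siINO80#2. By these values the 2 siINO80 lists lay on opposite sides of NTG at MX1. In siINO80#2 a level below NTG was also the median of all genes, and the MX1 summit held 20 reads in both lists. The difference was not tested.

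**Figure D2:**
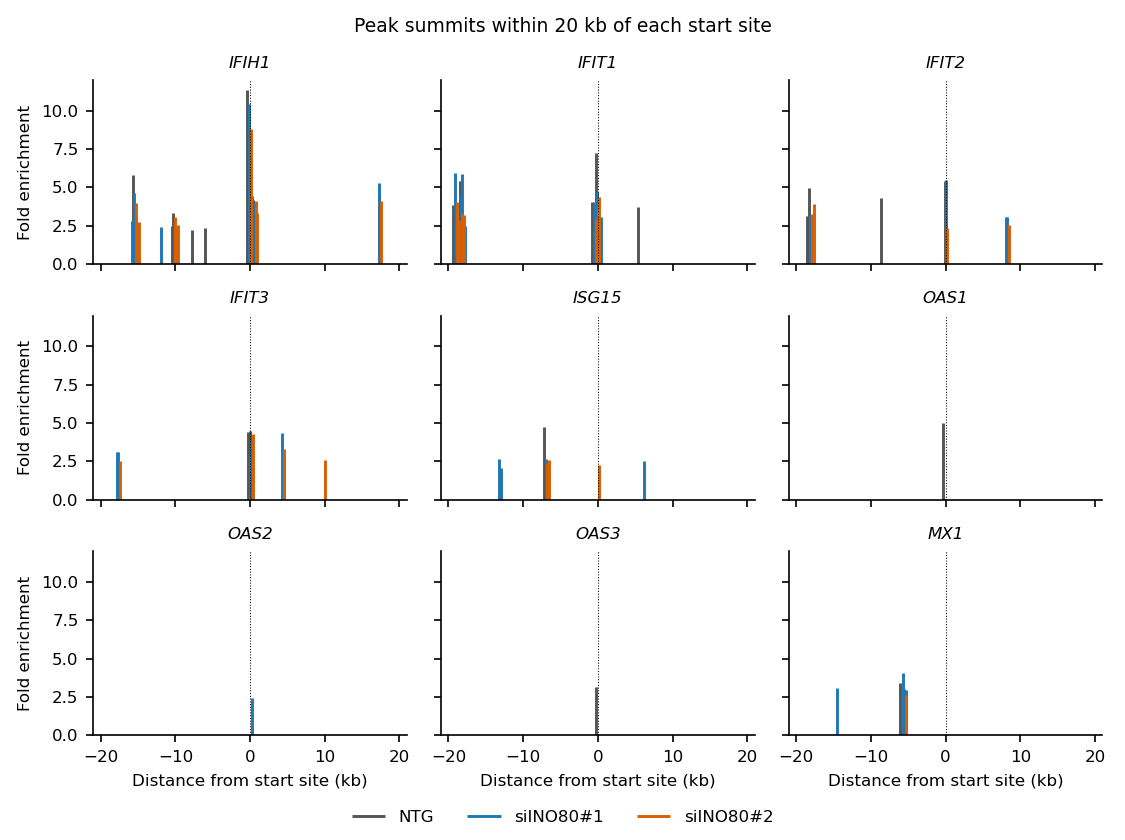
Fold enrichment of each peak summit against its distance from the representative start of each gene (kb, in the direction of transcription), with NTG, siINO80#1 and siINO80#2 bars drawn slightly apart so that each can be seen. The start-site bars are common to the lists at IFIH1, IFIT1, IFIT2 and IFIT3, and belong to NTG alone at OAS1 and OAS3.

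The other genes of the pathway were described from 4 lists. None of 9 interferon genes, IFNB1, IFNA1, IFNA2, IFNL1, IFNL2, IFNL3, IFNE, IFNK and IFNG, had a start-site peak in any list. Of 12 sensors of foreign nucleic acid, 5 had one in NTG, 4 in siINO80#1 and 5 in siINO80#2, or 41.7%, 33.3% and 41.7%, below the all-gene shares given above. RIGI, the sister sensor of MDA5, was at the 91.1st percentile in NTG, 98.1st in siINO80#1 and 95.4th in siINO80#2. EIF2AK2, the kinase PKR, was at 87.7, 81.4 and 82.2, TLR3 at 73.6, 67.9 and 42.4, and NLRP3 at 60.9, 73.5 and 66.4. STING1 had a peak in NTG and siINO80#2, and DHX58, TLR7, TLR8, TLR9, CGAS, ZBP1 and AIM2 had none.

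Of 23 receptor and signalling genes, 17 had a start-site peak in NTG, 16 in siINO80#1 and 14 in siINO80#2, or 73.9%, 69.6% and 60.9%, where the all-gene shares also fell in siINO80#2, to 48.9%. STAT2 was at the 95.9th, 91.5th and 89.0th percentile in NTG, siINO80#1 and siINO80#2. IFNGR1, a receptor chain for interferon gamma, was at 94.5, 93.4 and 87.2, and the transcription factor gene IRF1 at 85.7, 81.5 and 79.5. IFNLR1, the receptor for type III interferon, had a peak in NTG alone, and USP18, which removes ISG15 from proteins, and the adaptor gene MYD88 had one in NTG and siINO80#1. The median percentile difference was 0.689 points in siINO80#1 and −6.56 in siINO80#2.

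**Figure D3:**
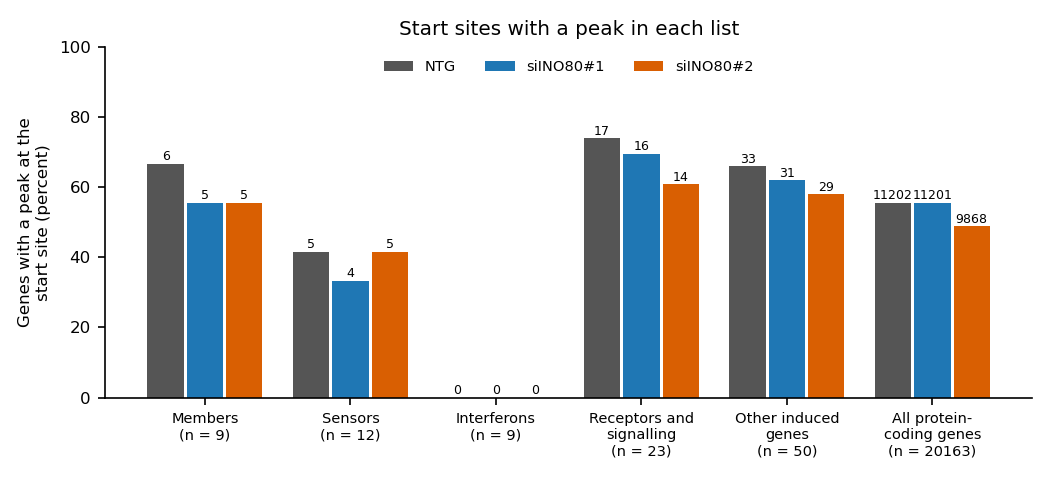
Percent of genes with a peak summit within 1 kb of the start site in NTG, siINO80#1 and siINO80#2, for the 9 genes, 4 pathway lists and all protein-coding genes, with the number of genes above each bar. The interferon genes are at 0, and the members have 6, 5 and 5.

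The last list holds other genes that interferon induces, and most of their start-site peaks ranked lower with the INO80 siRNAs than in NTG. This list too was chosen with earlier results of these data known. Of 50 such genes, 33 had a peak in NTG, 31 in siINO80#1 and 29 in siINO80#2, or 66.0%, 62.0% and 58.0%, beside 55.6%, 55.6% and 48.9% of all genes. Of the 31 with a peak in NTG and siINO80#1, 25 ranked lower in siINO80#1, with a median difference of −8.55 points, where 51.5% of all genes ranked lower and the median was −0.145. Of the 27 with a peak in NTG and siINO80#2, 23 ranked lower, with a median of −9.61, where 69.3% of all genes ranked lower and the median was −3.73. By at least 10 points, 14 of 31 were lower and 3 higher in siINO80#1, and 13 of 27 were lower and 1 higher in siINO80#2, to be read against the 17.5% and 33.7% of all genes given above. The median ratio of the level to NTG was 0.696 and 0.609.

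The strongest of these peaks in NTG were at DDX60L, HERC6, TRIM21 and DDX60, whose products act against viruses or regulate innate signalling. DDX60L was at the 99.7th percentile in NTG, 96.4th in siINO80#1 and 97.3rd in siINO80#2, and HERC6 was at the 98.7th, 92.9th and 93.9th. TRIM21 was at 96.4, 90.9 and 89.0, and DDX60 at 95.3, 94.9 and 91.9. IFI6, PSMB8, SAMHD1 and ISG20 were chosen after their values were seen. IFI6, which encodes a mitochondrial and reticular antiviral protein, was at 87.5, 37.1 and 40.5, and PSMB8, an immunoproteasome subunit, at 77.4, 46.0 and 21.4. Against this direction, SAMHD1, a dNTP hydrolase, was at 71.0, 88.7 and 82.2, and ISG20, an RNA exonuclease, at 93.9, 96.1 and 97.0.

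LGALS3BP, BATF2, BST2 and PARP12 had a start-site peak in NTG and siINO80#1 and not in siINO80#2, and MX2 and UBA7 had one in NTG alone. These are to be read against the 33 with a peak in NTG. Over all genes with an NTG peak, 6.11% had none in siINO80#1 and 14.6% had none in siINO80#2. IFITM3, an antiviral membrane protein, and IFI44L had one in siINO80#2 alone, with fold enrichments of 3.58 and 3.06. Adjacent genes that share a peak, PARP9 with DTX3L and PSMB9 with TAP1, are not independent. Without these 4 genes the medians were −8.55 and −7.39 points.

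**Figure D4:**
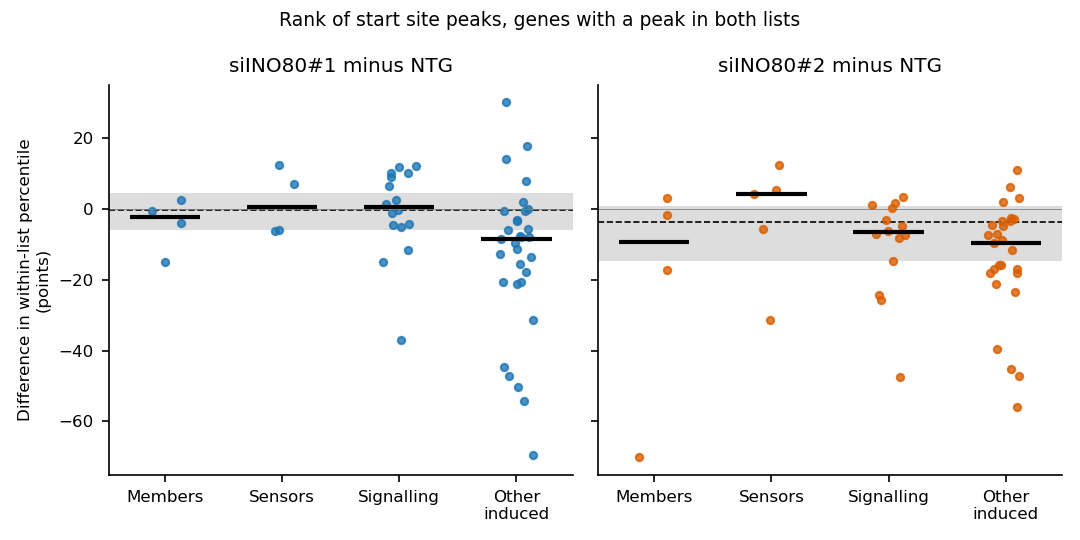
Difference in the within-list percentile of the start-site peak, siINO80#1 minus NTG (left) and siINO80#2 minus NTG (right), for genes with a peak in both lists. Points are genes, bars are medians, the dashed line is the median of all protein-coding genes and the grey band their middle 50%. The medians of the other induced genes lie at −8.55 and −9.61 points.

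The share of the other induced genes with a response element in the promoter window was 60.0%, against 41.7% of the sensors, 33.3% of the interferon genes and 17.4% of the receptor and signalling genes. The same difference was described over all genes with and without an element. The 278 genes with an element and a peak in NTG and siINO80#1 had a median difference of −0.500 points, and the 10240 without had −0.137. In siINO80#2 the medians were −3.38 and −3.74.

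Beyond the start sites, the peaks around the 9 genes merged into 44 regions in 5 loci, of 111260 regions in all. Of the 44, 16 were in all 3 lists, which is 36.4%, beside 26.8% over the series. The share was 50.0% in the IFIT locus and 0% in the OAS locus. A 95% Wilson interval of 23.8 to 51.1% would hold only for independent regions, and regions of a locus are not independent. It is used below only as the range for the alternatives. There were 10 in NTG alone, 9 in siINO80#1 alone, 4 in siINO80#2 alone, 2 in NTG and siINO80#1 and 3 in both siINO80 lists without NTG. As shares these were 22.7%, 20.5%, 9.09%, 4.55% and 6.82%, close to the 24.4%, 21.6%, 11.7%, 7.64% and 5.19% of all regions in the series. The IFIH1 locus held 17 regions, 18.6 per 100 kb. Chromosome 2 as a whole held 8.86 per 100 kb against 3.59 over all chromosomes, so IFIH1 lies on a chromosome with many called peaks in every list.

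The strongest region of the IFIT locus was not at an IFIT start but at chr10:91037747-91038335, over an exon of LIPA, the lysosomal lipase gene whose annotation spans IFIT2, IFIT3 and IFIT1. Its fold enrichment was 8.63, 8.79 and 7.09 in NTG, siINO80#1 and siINO80#2. IFIT5, next to IFIT1, had a start-site peak of 7.43, 6.39 and 5.78. In the ISG15 locus the strongest region, chr1:941790-942172 in an intron of an annotated ISG15 transcript, had 4.77, 2.68 and 2.61, at the 73.6th, 29.6th and 24.2nd percentile.

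Shared by siINO80#1 and siINO80#2 but absent from NTG were the 3 regions counted above, a share near that of the series, and the first was the internal IFIT3 start. The second, chr10:91069830-91070161, lay in a LIPA intron 8123 bases past the IFIT2 start, with fold enrichments of 3.09 and 2.53. The third, chr2:163139185-163139955 in an IFIH1 intron, had 4.21 and 2.84. Of the 10 regions in NTG alone, 2 were the OAS1 and OAS3 starts. Among the rest the strongest was chr10:91053330-91053629 in an IFIT2 exon, at 4.28, followed by an IFIT1 intron at chr10:91157927-91158209, at 3.74. The other 6 had fold enrichments of 2.26 to 2.92.

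A response element lay within 100 bases of the strongest summit in 7 of the 44 regions, or 15.9%, against 2.75% of all regions. TGANTCA lay there in 6 of 44, or 13.6%, against 15.7% of all regions. The 7 included the starts of IFIT1, IFIH1, ISG15 and OAS3 and the upstream start of MX1.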

How the data were processed

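ATAC-seq was carried out in HepG2 cells with 3 replicates per siRNA, grouped by their titles. For each siRNA 1 peak list was deposited, and how replicates were combined for it is not given in the sources used here. Per the submitters' processing notes, Trim Galore 0.4.1, Bowtie2, SAMtools, MACS2, deepTools 2.2.4 and hg19 were used, and their settings for ATAC-seq, including the transposase offset, are not given in the sources used here. The fold enrichment of a peak is a ratio deposited by the authors. The p and q of a peak were deposited as −log10 values, the lowest −log10 q being 1.30 in each list.

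Intervals were counted once, by their strongest summit. Reads at the summit were solved as whole numbers from fold enrichment and −log10 p to within 0.000246 of the deposited −log10 p, and the nearest other number missed it by 0.0275 or more. The summits of highest −log10 p, 8 in NTG, 20 in siINO80#1 and 8 in siINO80#2, were not solved. PCR duplicates and unknown totals mean that the intervals cover counting error only. Genes were those of GENCODE lifted to GRCh37, and no peak ended beyond its chromosome. DDX58, MB21D1 and TMEM173 of the lists were matched to the current symbols RIGI, CGAS and STING1. Lists overlapped from 1 bp. Intervals of a ratio of levels are exact conditional intervals of 2 counts and take the backgrounds as known. A start was 1 representative transcript per gene.

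The members and lists were chosen with earlier results of these data known. Named genes were all 9 members, the sensors and interferon genes, up to 10 genes per list with a start-site peak in NTG but not in both siINO80 lists or the reverse, and up to 4 per list with a peak in all 3 lists, strongest NTG percentile first, of which 1 is not reported here. IFI6, PSMB8, SAMHD1 and ISG20 were named outside this rule, after their values were seen. Named regions were those in NTG alone, those in both siINO80 lists alone and the strongest of a locus. Alternatives were 500 bp or 2.5 kb to the start, any base of a peak, any transcript, −log10 q of at least 5, equal list size (53113 peaks), other windows and ranks. Those for the other induced genes were chosen after seeing the data. The steps were tested on simulated data, and 100% of 5000 simulated summits were recovered. The tools were pandas 2.3.3, numpy 2.4.6, matplotlib 3.10.9 and scipy 1.17.1 under Python 3.11.15.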

Additional observations from a re-analysis of the deposited data

Results flagged for a closer look

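At the IFIT2 start, siINO80#1 ranked 2.65 percentile points above NTG whereas siINO80#2 differed from NTG by −70.1 points. At the IFIT3 start the siINO80 lists also lay on opposite sides of NTG, by −3.90 points in siINO80#1 and 3.10 in siINO80#2. Each direction rests on 1 list per siRNA, and the difference between the siRNAs was not tested.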

How the results depend on the processing

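No paired analysis was possible because the replicates of a group share a single deposited list, and for the same reason no replicate could be left out. Of 139 values recomputed for 29 results, 127 stayed within 1.5 times a count, within 10 percentile points or within the interval of a share, and 12 moved; no difference of 10 points or more changed sign. IFIT3 in siINO80#2 went from 3.10 to 12.4 points at equal list size. With a −log10 q of at least 5, member starts with a peak in siINO80#2 numbered 3, members that differed from NTG in siINO80#1 numbered 1, and there were 22 regions around the members, of which 10 were in all 3 lists, 3 in NTG alone and 0 in both siINO80 lists without NTG. Fewer peaks enter under this setting, where 1503 of 20163 protein-coding starts differed from NTG in siINO80#1. Gene bodies alone held 25 regions, 6 of them in NTG alone, and equal list size left 5 in NTG alone. The element was in 6.83% of promoters from 500 bases before to 100 after the start, and in 0.303% when followed by CT, with 7 and 5 of the members. With the peak nearest the start, IFIT3 in siINO80#1 differed from NTG by −26.4 points. That setting took a weaker summit of the same siINO80#1 peak, at the 43.2nd percentile, beside an NTG summit at the 69.6th.

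The median of the other induced genes stayed negative in every setting, between −10.4 and −7.30 points in siINO80#1 and between −9.61 and −4.43 in siINO80#2, the last after subtraction of the median of all genes in the same 10-point band of NTG percentiles. At equal list size OAS2 had no peak in siINO80#1. With any annotated transcript as the start, MX1 had a peak in all 3 lists and ISG15 also in siINO80#1. The siINO80#1 peak, chr1:935483-935956, was near an upstream ISG15 start at chr1:936518, not the representative start at chr1:948877. Its strongest summit lay 38 bases before an annotated start of HES4, so it cannot be assigned to ISG15. The start-site peaks of OAS2, OAS3, ISG15 and, in siINO80#2, IFIT2 had a −log10 q of 1.38 to 2.91, and no list holds a peak below 1.30.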
